A study of Homo sapiens with 12 samples.

Results

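The stretch of the short arm of chromosome 9 at chr9:4900000-8000000 (GRCh38), band 9p24, holds JAK2, CD274, PDCD1LG2, UHRF2, GLDC and KDM4C. Its open chromatin was read from ATAC-seq peak lists, in which a transposase inserts into accessible DNA and the insertions are sequenced. The members were all peaks with start and end inside these limits in 12 libraries, joined into 1 region at any overlap of 1 bp or more. They numbered 1847 merged regions of 2361798 in all, built from 3587 peaks. The segment was selected on measured values of these same libraries, namely a higher local background in one cell line than in the other, so every difference between the lines is given as a description without a test.

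The libraries came from KYSE150 and KYSE510, a pair of established human oesophageal squamous carcinoma lines grown in RPMI-1640 with serum. Each line had 3 control libraries and 3 libraries made after silencing of HCP5, a long non-coding RNA, so there were 4 groups: KYSE150 control, KYSE150 HCP5-silenced, KYSE510 control and KYSE510 HCP5-silenced. The sources used here do not give the silencing agent, the kind of control or whether the libraries of a group came from separate cultures, so p-values measure only the spread between these libraries, which may be technical. Peak lists do not measure HCP5 RNA, so the silencing itself was not checked.

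This part of 9p is known for gains of copy number in several tumours. KDM4C was cloned, as GASC1, from such a gain in oesophageal squamous carcinoma lines. Interferon gamma signals through the kinase JAK2 and induces the factor IRF1, which switches on CD274 and PDCD1LG2, the genes of the immune checkpoint ligands PD-L1 and PD-L2. KDM4C removes methyl groups from histone H3 lysines, UHRF2 reads modified cytosines and attaches ubiquitin, and GLDC is the decarboxylase of the mitochondrial glycine cleavage system. Copy number was not measured in the files used here, and its part in the values below was not tested.

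The 250 bases before the start of 4 genes are shown as examples of starts called in both lines and of starts called chiefly in KYSE510. CD274 and KDM4C were open in both lines, with greater heights in KYSE150. GLDC and INSL4, a placental insulin-like peptide gene, were open chiefly in KYSE510. The sequences are from RefSeq (GRCh38.p14), 5′ to 3′ on the strand of the gene, with motif matches in capitals. They lie at chr9:5450292-5450541 on the + strand (CD274), chr9:6757723-6757972 on the + strand (KDM4C), chr9:6645730-6645979 on the - strand (GLDC) and chr9:5231169-5231418 on the + strand (INSL4).
CD274: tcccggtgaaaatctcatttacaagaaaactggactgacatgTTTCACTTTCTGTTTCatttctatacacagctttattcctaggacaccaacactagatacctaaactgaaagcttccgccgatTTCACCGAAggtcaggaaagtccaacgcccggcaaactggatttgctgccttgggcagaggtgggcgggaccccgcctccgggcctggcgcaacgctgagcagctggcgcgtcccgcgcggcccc
KDM4C: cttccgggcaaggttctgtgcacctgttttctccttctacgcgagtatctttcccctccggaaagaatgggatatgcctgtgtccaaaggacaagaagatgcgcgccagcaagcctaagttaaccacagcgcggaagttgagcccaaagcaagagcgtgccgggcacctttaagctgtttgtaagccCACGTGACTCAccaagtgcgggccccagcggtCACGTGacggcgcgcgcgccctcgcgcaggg
GLDC: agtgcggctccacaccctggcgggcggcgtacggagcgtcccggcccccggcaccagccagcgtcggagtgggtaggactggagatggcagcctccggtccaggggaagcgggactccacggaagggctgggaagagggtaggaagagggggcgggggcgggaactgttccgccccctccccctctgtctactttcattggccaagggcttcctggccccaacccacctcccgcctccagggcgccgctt
INSL4: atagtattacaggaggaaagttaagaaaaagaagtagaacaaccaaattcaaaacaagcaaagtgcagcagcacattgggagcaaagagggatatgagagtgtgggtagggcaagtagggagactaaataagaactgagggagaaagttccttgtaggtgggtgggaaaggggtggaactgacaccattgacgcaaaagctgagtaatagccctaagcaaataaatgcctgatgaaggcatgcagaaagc
The 5 motifs searched on both strands were the E-box CACGTG, the AP-1 motif TGANTCA, the STAT motif TTCNNNGAA, the cAMP-response motif TGACGTCA and the core of the interferon-stimulated response element, which is GAAA, any 2 bases and GAAA. The interferon-response core matched the CD274 promoter at 208 and again, overlapping, at 202 bases before the start, and the STAT motif matched at 125 bases. In the KDM4C promoter the E-box matched at 63 and 31 bases, and the AP-1 motif at 59 bases overlapped the first of these. None of the 5 motifs matched in the GLDC and INSL4 windows. Over 34943 promoters of the same length the shares with a match were 6.32% for the E-box, 6.59% for the AP-1 motif, 6.56% for the STAT motif, 3.02% for the interferon-response core and 1.63% for the cAMP-response motif. The windows differed in base composition: GC content was 54.8% with 16 CpG in CD274, 59.2% with 21 in KDM4C, 70.8% with 19 in GLDC and 43.6% with 1 in INSL4, beside medians of 58% and 11 over all promoters. A match is a description of these letters only.

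Across the whole data set the 6 KYSE150 lists held 547125 to 630780 peaks and the 6 KYSE510 lists 115868 to 135948. Markers of the labelled cell type were read at gene starts. Of 12 squamous genes, 6 (50%) had a region in all KYSE150 libraries and 9 (75%) in all KYSE510 libraries, beside 50.8% and 55.2% of all protein-coding genes with a listed start, so the KYSE150 share was no higher than that of genes in general. TP63, the squamous master regulator, had a peak of height 1 at its listed start in 1 KYSE150 library and none in KYSE510. SOX2, another squamous factor, was called in 1 KYSE150 library and in all 6 of KYSE510. KRT14 was called in 1 library of each line. KRT5, DSG3, DSC3, S100A2 and TRIM29 were called in all 6 libraries of both lines. Heights at S100A2 were 18 to 28 in KYSE150 and 41 to 66 in KYSE510. Of 17 genes of immune cells, fibroblasts, endothelium and glandular epithelium, 1 was called in all 6 KYSE150 libraries (TFF3, heights 1 to 3). In all 6 KYSE510 libraries 2 were called, CD14 (heights 8 to 16) and COL1A1 (heights 12 to 20). COL1A1, CD3E and COL1A2 were called in 5 KYSE150 libraries, at heights of up to 12, 3 and 5. Read depth is unknown.

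The segment held 464, 463 and 525 peaks in the KYSE150 control libraries, 501, 418 and 500 in the silenced ones, 121, 122 and 98 in the KYSE510 controls and 101, 133 and 141 in the silenced ones. Most members were private to a library: 1274 of 1847 (69.0%) were called once, beside 69.3% of all regions. In all 12 libraries 28 members were called (1.52%, beside 1.20% of all regions). All 6 KYSE150 libraries shared 73 members (3.95%, beside 1.94%), and all 6 KYSE510 libraries shared 47 (2.54%, beside 2.05%).

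Local background was the measure that defined the segment. It was solved from each peak as (height + 1) / fold enrichment - 1, where height is the deposited pileup at the peak and fold enrichment the authors' ratio to the local expectation. Each library had a lowest, commonest background, 0.0826 to 0.108 in KYSE150 and 0.180 to 0.217 in KYSE510. All higher values checked, at peaks of height 20 or less, were multiples of 0.02. In KYSE150 70.1 to 85.0% of segment peaks lay above the lowest value, beside 26.2 to 37.7% of all peaks. In KYSE510 the order was the other way, with 62.0 to 70.7% in the segment and 73.9 to 79.8% of all peaks.

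The excess in KYSE150 was not even along the segment. In windows of 250 kb the median background stayed at the lowest value up to position 5250000, which includes the JAK2 start. It then reached a median over the 6 libraries of 1.54 times the lowest value at chr9:5250001-5500000 (range 1.38 to 2.77), 2.86 times at chr9:5500001-5750000 (2.53 to 3.87), 3.46 times at chr9:5750001-6000000 (1.38 to 4.61) and 3.66 times at chr9:6000001-6250000 (2.76 to 4.36). These 4 windows hold CD274, PDCD1LG2, PLGRKT, RIC1, ERMP1, BRD10 and RANBP6, and also RLN1, RLN2, MLANA and IL33. UHRF2, GLDC and KDM4C lie beyond them. The ratio was 1.82 at chr9:6250001-6500000 with the UHRF2 start and 1.602 at chr9:6500001-6750000 with the GLDC start. It was 1.54 at chr9:6750001-7000000 with the KDM4C start, and 1.33 at the far end, chr9:7750001-8000000. In windows of this size the ratio at these 3 starts was therefore close to or above that of the window with CD274.

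Finer windows of 50 kb placed the changes more closely. At chr9:5150001-5200000 the median over 6 libraries was at the lowest value, at chr9:5200001-5250000 it was 1.18 times that value, and at chr9:5400001-5450000, just before CD274, it was 6.17 with a range of 1.45 to 21.1. These windows held 4 to 13 peaks a library, so single values are rough. After position 6250000 a low but raised ratio ran on past the segment, at 1.11 to 1.29 over chr9:8000001-9500000. It was back at the lowest value in all 6 libraries at chr9:9500001-12000000. On the other side, at chr9:3000001-4900000, it was at the lowest value too. The segment's upper limit therefore cut through the low raised ratio, called the plateau below, and its lower limit lay on flat ground. The name does not mean a measured flat level. The plateau's windows of 250 kb differed, and height-1 peaks were listed only up to a background of 0.140.

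**Figure D1:**
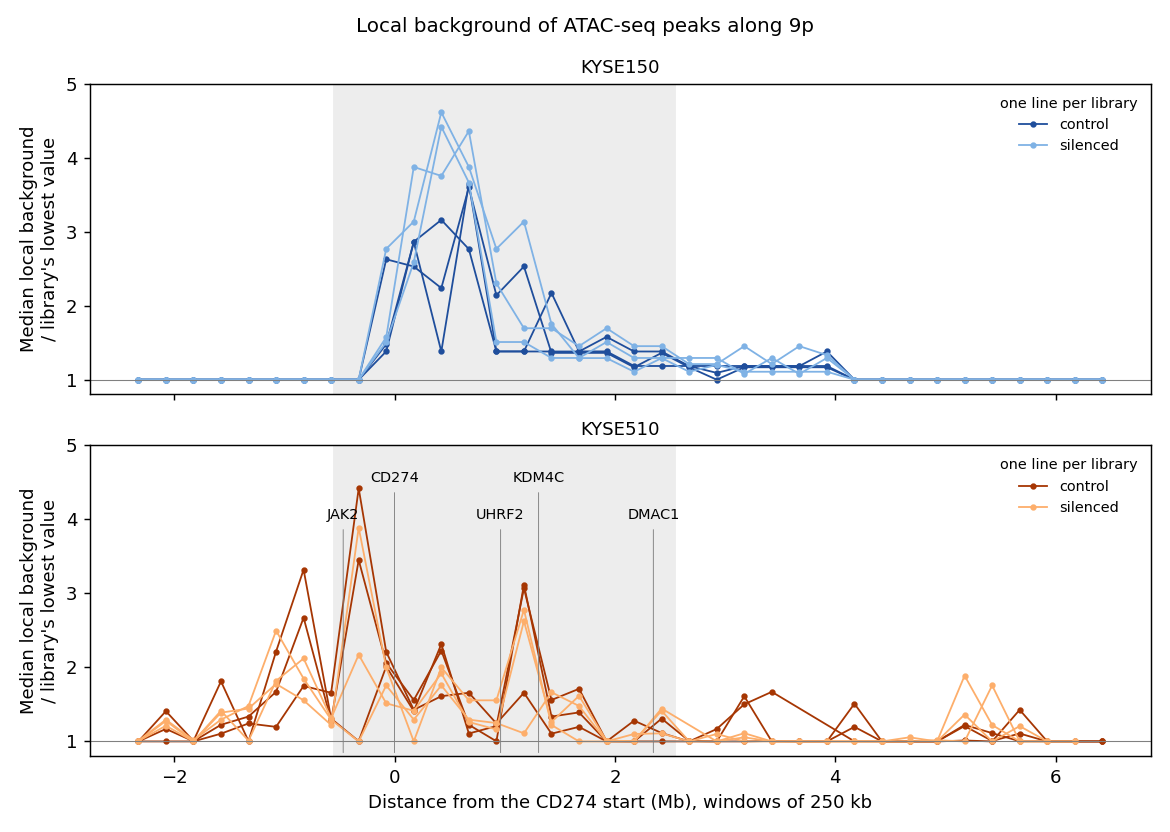
Median local background of peaks in windows of 250 kb, divided by each library's lowest value (vertical axis), against the distance from the CD274 start in Mb (horizontal axis), with 1 line per library, shading for the segment and names at 5 gene starts. In KYSE150 the ratio leaves 1 just before CD274, reaches 4.61 in the highest library and lies between 1 and 1.45 in the windows from the segment's end to position 9500000, while the KYSE510 libraries, with few peaks per window, move up and down without one step.

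Taken over chr9:5250001-6250000, a stretch chosen after its values were seen, the KYSE150 ratio was 3.16, 2.72 and 2.37 in the control libraries and 2.802, 3.32 and 3.63 in the silenced ones. The groups overlapped. Over the same stretch KYSE510 stood at 1.44 to 1.67. After it, chr9:6250001-8000000 stood at 1.29 to 1.45 in KYSE150 and 1.10 to 1.51 in KYSE510. Before it, chr9:4900001-5250000 stood at the lowest value in KYSE150 and at 1.21 to 2.61 in KYSE510. Windows raised this far were rare in KYSE150, where 11284 windows of the genome had at least 10 peaks in each of its 6 libraries. Of these, 15 (0.133%) were at 2 times the lowest value or more in all 6, and 2 of the 15 lay in the segment. The segment was selected on its background, so that count is a description only. In KYSE510 936 of 4302 windows with at least 10 peaks (21.8%) were at that level in all 6 libraries, and 0 of its 4 in the segment. The lines are not alike in this measure. KYSE510 lists held no peak of height 1, so its medians rest on taller peaks, and fewer of its windows had 10 peaks.

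A raised background also altered which peaks could be listed. The largest deposited p-value was 0.00987, and under that limit a peak of height 1 was listed only at a background of at most 0.140, one of height 2 at most 0.420 and one of height 3 at most 0.820. Height-1 peaks made up 80.8 to 82.5% of all KYSE150 peaks, 41.1 to 58.3% of those in the segment and 13.8 to 37.4% of those at chr9:5250001-6250000. In KYSE510 no peak of height 1 was listed. Peaks with a deposited FDR of at most 0.05 were 27.8 to 38.4% of the KYSE150 segment and 13.9 to 17.2% of all KYSE150 peaks. The medians of background were taken over listed peaks, so the limit bears on them too. At chr9:6250001-8000000 they were 0.140, 0.140 and 0.140 in the KYSE150 controls, at the limit for height 1. In the KYSE150 silenced libraries they were 0.120, 0.140 and 0.120. Height-1 peaks were 45.9 to 65.9% of KYSE150 peaks there. The part of this limit in the peak numbers and in the medians was not tested.

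Taken part by part along the segment, the median height difference between the lines rose and fell with the KYSE150 background. Single regions after position 6250000 varied widely. Height is a term in the solved background on which the segment was selected, so the measures are not independent and the heights are description only. Among the 28 members called in all 12 libraries, 25 (89.3%) had the higher mean log2 height in KYSE150, where 21.3% of all 28333 regions called in 12 libraries did. The median difference in mean log2 height, KYSE150 minus KYSE510, was 1.65 for the members and -0.56 for all such regions. By position it was -0.98 for the 2 regions before 5250000, 1.99 for the 13 regions at chr9:5250001-6250000 (range 1.45 to 2.40) and 0.87 for the 13 regions after that stretch (-0.23 to 2.09). Fold enrichment, which divides by the local background, gave smaller differences on the log2 scale: 0.97 at chr9:5250001-6250000, 0.47 after it and -0.21 over all regions. Of the 28 members 10 lay within 1 kb of a gene start (35.7%, beside 27.1% of all).

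**Figure D2:**
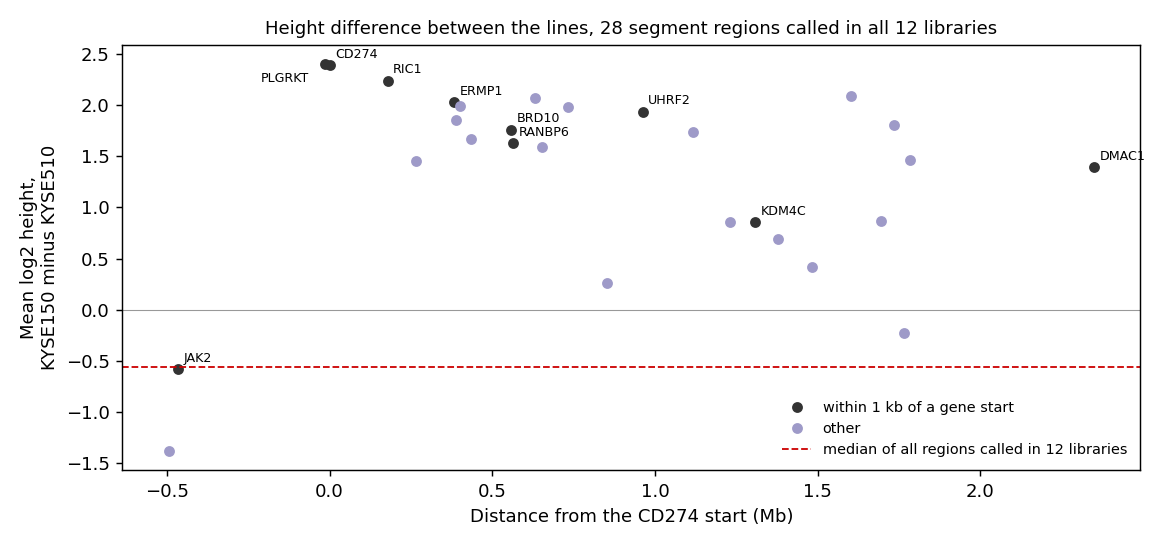
Difference in mean log2 height between the lines, KYSE150 minus KYSE510 (vertical axis), for the 28 members called in all 12 libraries, against the distance from the CD274 start in Mb (horizontal axis). JAK2 lies at -0.58, beside the dashed median of all regions at -0.56, PLGRKT and CD274 at 2.40, and KDM4C at 0.86.

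The interferon gamma kinase and the checkpoint ligands, which lie within the same stretch, stood on opposite sides of the step. At the JAK2 start (chr9:4984409-4985630) heights were 24, 14 and 23 in the KYSE150 controls, 16, 17 and 12 in the silenced cells, 34, 18 and 27 in the KYSE510 controls and 21, 29 and 28 in the silenced cells. The lines overlapped there, and the log2 difference of -0.58 lay beside that of regions in general. At the CD274 start (chr9:5450253-5450746) heights were 60, 50 and 54, then 55, 45 and 40 in KYSE150, and 10, 10 and 12, then 10, 9 and 7 in KYSE510, in the same order of groups. The lines did not overlap, and the KYSE150 to KYSE510 ratio of heights, taken here and below from the means of log2 height, was 5.26. In fold enrichment the gap was narrower, 9.27 to 12.9 against 5.19 to 7.86, with a background under the peak of 2.86 to 4.50 in KYSE150 and 0.400 to 0.660 in KYSE510.

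Inside the CD274 gene the strongest region, chr9:5455215-5455613, repeated the pattern. Heights were 21, 33 and 36 (control) and 27, 32 and 26 (silenced) in KYSE150 and 5, 7, 7 and 4, 0, 8 in KYSE510, where 0 means that no peak was listed. PDCD1LG2, without a listed start, was read within 1 kb of either gene end: the region at chr9:5509364-5510285, 246 bp from the gene, had heights of 19, 36 and 44 (control) and 24, 50 and 26 (silenced) in KYSE150. Its KYSE510 heights were 5, 5, 4 and 0, 5, 10, all below the lowest KYSE150 library. The fold enrichment here, 11.4 to 20.7 in KYSE150, was above that at the CD274 start in 5 of the 6 libraries, at a lower background of 0.700 to 1.56.

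The chromatin regulators lie on the plateau beyond the raised stretch, and both starts were open in both lines. UHRF2 (chr9:6412850-6413691) had heights of 105, 61 and 77 (control) and 75, 66 and 51 (silenced) in KYSE150 and 26, 13, 24 and 22, 11, 20 in KYSE510, a ratio of 3.83 between the lines without overlap. KDM4C (chr9:6756996-6758433) had 45, 36 and 49, then 53, 37 and 26 in KYSE150 and 21, 17, 24 and 24, 24, 23 in KYSE510. Its ratio was 1.81, and the lowest KYSE150 library stood only 2 above the highest KYSE510 library. Fold enrichment at the KDM4C start overlapped between the lines, 8.18 to 12.8 in KYSE150 and 7.69 to 10.6 in KYSE510, at backgrounds of 2.30 to 3.92 and 1.34 to 1.70.

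Within the KDM4C gene the strongest region, chr9:6931844-6932672, was nearly level between the lines in height. Its log2 difference of 0.42 stood beside a median of -0.56 over all regions called in 12 libraries. Heights were 36, 49 and 37 (control) and 37, 32 and 31 (silenced) in KYSE150, and 25, 35, 31 and 20, 24, 32 in KYSE510, a ratio of 1.34 with overlap. Another region of the same gene, chr9:7052591-7053003, differed by 2.09 on the log2 scale. Over the KDM4C regions called in all 12 libraries the log2 height difference between the lines ran from 0.42 to 2.09, and a further region inside the gene, chr9:6876221-6876589, had peaks only in KYSE510.

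GLDC differed between its start and its body. At its start (chr9:6645549-6646129) no peak was listed in the 6 KYSE150 libraries, and heights in KYSE510 were 19, 13 and 22 (control) and 12, 11 and 11 (silenced). Its strongest region inside the gene, chr9:6566288-6567615, was open in both lines and higher in KYSE150, with 89, 108 and 118, then 87, 80 and 70, beside 27, 28, 25 and 27, 25, 32 in KYSE510. The start and this inner region thus differed between the lines in opposite directions. The window before the GLDC start is the most GC-rich of the 4 sequences printed above.

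**Figure D3:**
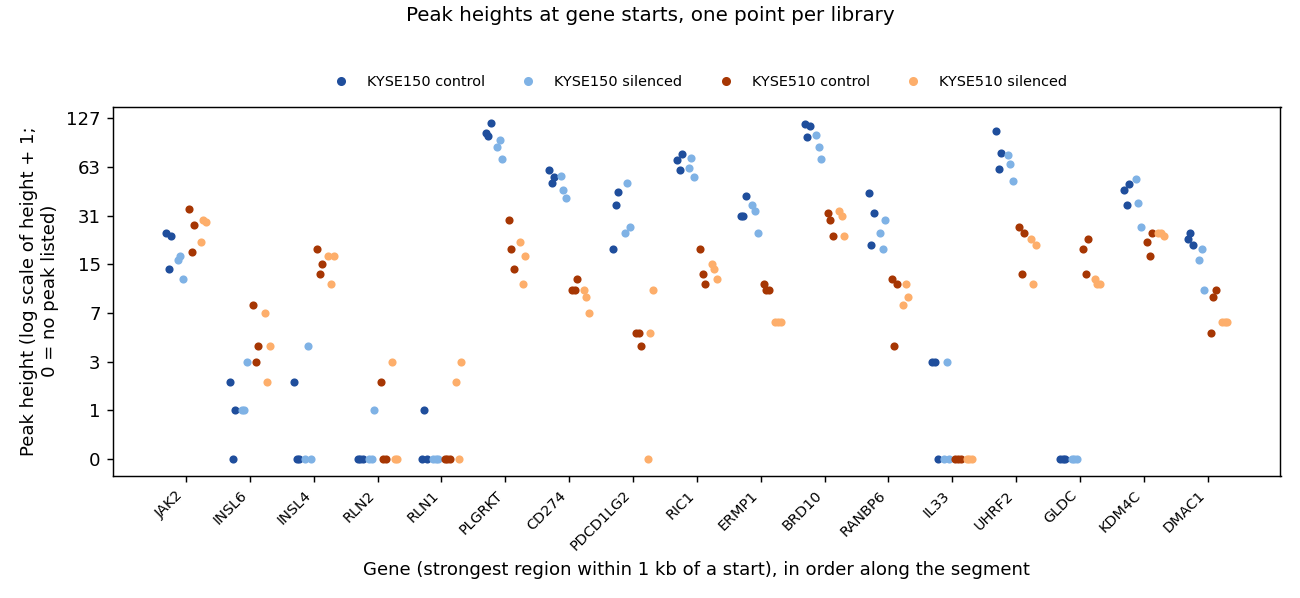
Peak height (vertical axis, log scale of height + 1, with 0 where no peak was listed) at the strongest region within 1 kb of each gene start, in order along the segment (horizontal axis), with 1 point per library. From PLGRKT to UHRF2 most genes stand higher in KYSE150 than in KYSE510; JAK2 overlaps between the lines, and GLDC has points above 0 only in KYSE510 (11 to 22).

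At 5 further gene starts of the raised stretch heights were also higher in KYSE150. The starts of RLN1, RLN2, MLANA and IL33, in the same stretch, had no peak or heights of 3 or less. PLGRKT, which encodes a plasminogen receptor, had heights of 103, 99 and 118, then 84, 93 and 71 in KYSE150 and 29, 19, 14 and 21, 11, 17 in KYSE510 (chr9:5437324-5438125), a ratio of 5.29. RIC1, part of an exchange factor for a Golgi GTPase, had 70, 60 and 76, then 62, 72 and 54 beside 19, 13, 11 and 15, 14, 12 (chr9:5628543-5629756), a ratio of 4.73. The ratio was 4.10 at ERMP1, an endoplasmic reticulum peptidase gene, 3.39 at BRD10, a bromodomain gene, and 3.09 at RANBP6, a gene of the importin family. These 5 starts did not overlap between the lines. At the DMAC1 start, a complex I assembly gene near the far end (chr9:7799146-7800231), heights were 10 to 24 in KYSE150 and 5 to 10 in KYSE510, touching at 10, with a ratio of 2.63.

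Of 18 protein-coding genes with a listed start in the segment, 10 had a region called at the start in all 6 KYSE150 libraries (55.6%, beside 50.8% of 15842 genes) and 13 in all 6 KYSE510 libraries (72.2%, beside 55.2%). MLANA, a melanocyte antigen gene, and TPD52L3 had no peak at their starts in any library, and IL33, the alarmin cytokine gene, had height 3 in 3 KYSE150 libraries and no peak in KYSE510. The relaxin genes RLN1 and RLN2 had heights of 3 or less where a peak was listed. INSL4 (chr9:5231124-5231852) had heights of 19, 13, 15 and 17, 11, 17 in KYSE510, while KYSE150 had 2 and 4 in 2 libraries and no peak in the other 4.

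Outside gene starts the tallest members lay 64530 and 86690 bases from RANBP6. The first, chr9:6080154-6080800, had heights of 149, 116 and 119 (control) and 120, 92 and 78 (silenced) in KYSE150 and 33, 31, 30 and 17, 25, 25 in KYSE510. Its neighbour at chr9:6102314-6103129 had 106, 131 and 122, then 116, 94 and 96, beside 35, 39, 31 and 45, 34, 36. The member with the highest mean rank of fold enrichment over the 12 libraries, chr9:7216176-7216934, lay past the end of KDM4C. Its heights overlapped between the lines. They were 43, 39 and 34, then 25, 35 and 22 in KYSE150 and 34, 42, 30 and 35, 41, 46 in KYSE510. The log2 difference was -0.23, beside a median of -0.56 over all regions called in 12 libraries. The nearby region chr9:7185474-7186427 had 49 to 80 in KYSE150 and 13 to 23 in KYSE510, so neighbours on the plateau differed from each other by more than 2 log2 units between the lines.

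Some members were complete in one line and absent from the other. Regions called in all 6 KYSE150 libraries without a peak in KYSE510 numbered 6 of 73 (8.22%, beside 6.83% over the genome). The tallest, at chr9:5269053-5269794, 30070 bases from RLN2, had heights of 30, 57 and 39 (control) and 28, 27 and 23 (silenced), and the next, inside PLGRKT at chr9:5388954-5389686, had 13, 17 and 16 and then 4, 10 and 9. In KYSE510 such regions numbered 6 of 47 (12.8%, beside 3.96% over the genome). Besides the GLDC start they included chr9:6703745-6704612, 16251 bases before KDM4C, with 15, 9, 8 and 15, 9, 7, and chr9:6876221-6876589 inside KDM4C with 6, 6, 10 and 9, 15, 11. These 12 regions were singled out after their values were seen.

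Silencing of HCP5 was compared with control inside each line, a contrast that did not choose the segment. The relative background, log2 of the segment's median over that of all peaks, was 0.46 ± 0.01 (SD, n = 3) in KYSE150 controls and 0.67 ± 0.27 (SD, n = 3) in silenced cells, a difference of 0.21 (two-sided exact permutation test, p = 0.4). The silenced libraries ran from 0.37 to 0.88 and spanned the controls, at 0.45 to 0.47. The difference was 0.36 without silenced library 1 and 0.11 without silenced library 2, and it turned to -0.21 among peaks with an FDR of at most 0.05 (exact permutation p = 0.1) and to -0.03 at an FDR of at most 1e-05. In KYSE510 it was -0.25 ± 0.06 and -0.26 ± 0.16 (SD, n = 3 each), a difference of -0.01 (exact permutation test, p = 1). The difference between the effects in the lines was 0.22 (permutation over 400 relabellings, p = 0.255).

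The share of each library's peaks that fell in the segment was the other value compared. It was 0.0836 ± 0.00762% in KYSE150 controls and 0.0829 ± 0.0143% in silenced cells (SD, n = 3 each, exact permutation p = 0.8). In KYSE510 it was 0.0911 ± 0.00627% and 0.0969 ± 0.0102% (SD, n = 3 each, exact permutation p = 0.4). With 3 libraries against 3 these exact tests cannot go below p = 0.1, so none of them could pass 0.05. These differences lay within the spread of the libraries. Among peaks with an FDR of at most 1e-05 the KYSE150 difference turned to 0.0351 percentage points, silenced over control, at the smallest p that the exact permutation test allows (p = 0.1). The effects of silencing on the share differed between the lines by -0.00645 percentage points (permutation over 400 relabellings, p = 0.545).

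Region by region, no member passed the test in either line. Fold enrichment was ranked inside each library over all regions called in the 6 libraries of a line, put on a normal scale, fitted with limma and adjusted by Benjamini-Hochberg over the genome. In KYSE150 0 of 73 members passed (0% of 45720 regions did), and at an unadjusted p under 0.05 there was 1 higher after silencing (1.37%, beside 2.61% of all) and 2 lower (2.74%, beside 2.72%). In KYSE510 0 of 47 passed (0% of 48472), with 0 higher (beside 3.95%) and 3 lower (6.38%, beside 3.34%) at the unadjusted threshold. Median score changes of the members, silenced minus control, were -0.03 in KYSE150 and -0.01 in KYSE510, beside 0.00 and -0.02 for all regions tested.

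**Figure D4:**
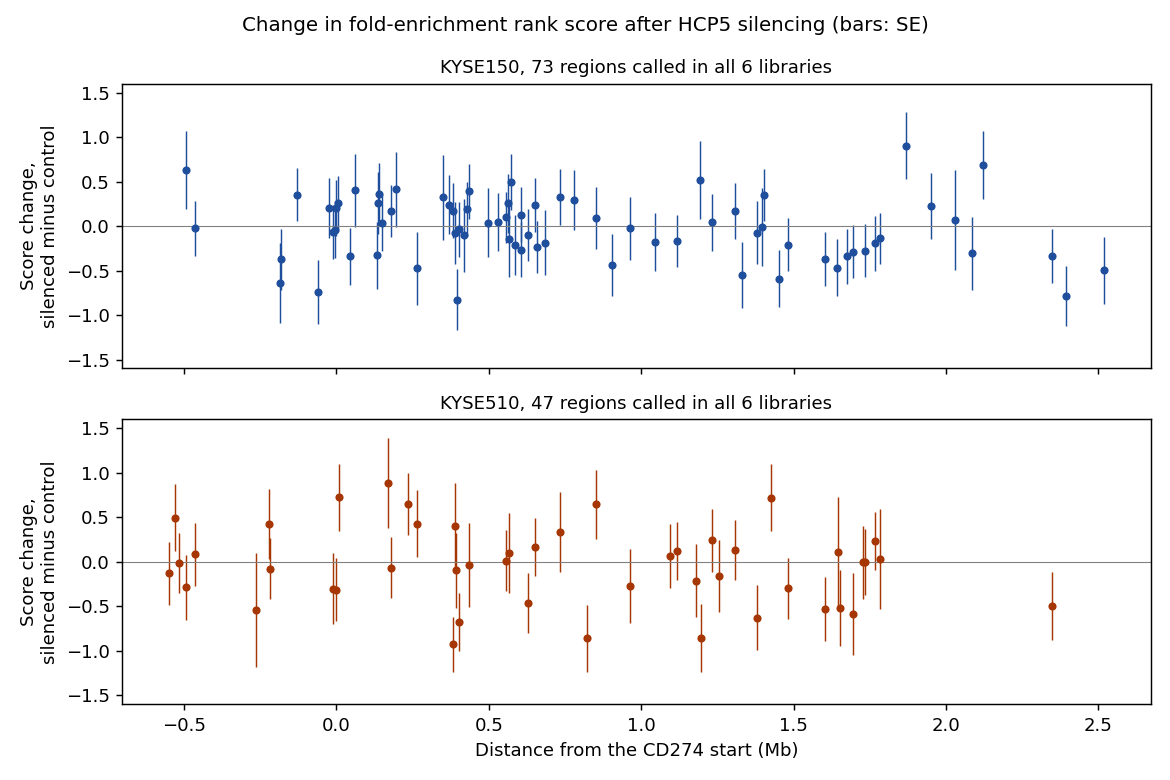
Change in rank score of fold enrichment, silenced minus control (vertical axis, normal-score units, bars of 1 standard error), against the distance from the CD274 start in Mb (horizontal axis), for the 73 KYSE150 and 47 KYSE510 members called in all 6 libraries of their line. Points lie on both sides of 0, from -0.83 to 0.90 in KYSE150 and from -0.92 to 0.89 in KYSE510.

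The genes that name the segment showed small score changes with wide errors. At the CD274 start the change was 0.20 ± 0.31 (SE) in KYSE150 and -0.31 ± 0.36 in KYSE510, with limma adjusted p = 0.975 and 0.891. JAK2 changed by -0.03 ± 0.31 and 0.08 ± 0.35 (limma adjusted p = 0.998 and 0.981). For KDM4C the values were 0.17 ± 0.31 and 0.13 ± 0.34, and for UHRF2 -0.03 ± 0.35 and -0.27 ± 0.41. PDCD1LG2 could be tested in KYSE150 alone, at 0.40 ± 0.41.

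The lowest unadjusted p in the segment belonged to the ERMP1 start (chr9:5832026-5833388) in KYSE510. Heights there were 11, 10 and 10 in the controls and 6, 6 and 6 in the silenced cells, groups that did not overlap, and the score change was -0.92 ± 0.31 (SE, limma adjusted p = 0.580). In KYSE150 the same start had 31, 31 and 41 beside 36, 33 and 24, a score change of 0.17 ± 0.31. Next in KYSE510 came a region 14068 bases from IL33, chr9:6272051-6272522, with heights of 7, 8 and 10 and then 6, 4 and 6 and a change of -0.86 (limma adjusted p = 0.672). The GLDC start came after it in that line, at -0.86 ± 0.39 (SE, limma adjusted p = 0.680).

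Among KYSE150 members the smallest p-values belonged to weaker regions. Inside ERMP1, chr9:5844592-5845269 had heights of 13, 17 and 9 in the controls and 4, 6 and 6 in the silenced cells, a score change of -0.83. Near DMAC1, chr9:7844273-7844633 had 17, 9 and 15 and then 6, 6 and 6, a change of -0.79. A region past KDM4C, chr9:7320019-7320738, had 10, 6 and 15 and then 11, 19 and 16, a change of 0.90. All of these had a limma adjusted p of 0.929.

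Whether silencing acted differently in the lines was tested by limma over the 28333 regions called in all 12 libraries. Of the 28 members 0 passed (0.00353% of all regions did, which is 1 region). At an unadjusted p under 0.05 there were 0 members with a more positive effect in KYSE510 (beside 2.85% of all) and 1 with a more negative one (3.57%, beside 2.64%). That member was the ERMP1 start, with a difference between the effects of -1.12 ± 0.43 (SE, limma adjusted p = 0.856).

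Presence and absence of peaks gave few candidates. Of 223 members called in at least 3 KYSE150 libraries, 4 were called in the 3 controls and in no silenced library (1.79%, beside 2.81% over the genome), and 3 the other way (1.35%, beside 2.36%). Of 101 such members in KYSE510, 0 were on the control side (beside 0.922%) and 4 on the silenced side (3.96%, beside 1.67%). With each library left out in turn, fewer libraries had to match. The counts then ran from 8 to 28 on the KYSE150 control side, 4 to 30 on its silenced side, and 0 to 3 and 5 to 7 on the KYSE510 sides. No share over the genome stands beside these ranges. In the main counts all were low peaks, of height 4 or less in KYSE150 and 7 or less in KYSE510. The tallest KYSE510 pair lay inside PDCD1LG2 (chr9:5565968-5566463, heights 3, 7 and 3 after silencing) and inside KDM4C (chr9:6788152-6788479, heights 3, 4 and 5). Both regions also had peaks in KYSE150, at 2, 6 and 0 (control) and 4, 4 and 2 (silenced) in the first and 0, 0 and 3 and 4, 6 and 0 in the second. A KYSE150 region inside PDCD1LG2, chr9:5522940-5523436, had 4, 3 and 2 in silenced cells alone.

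Partners of these genes elsewhere in the genome were read at their starts in the same way. Of 18 genes of the JAK-STAT pathway and of PD-L1 regulation, 14 had a region in all 6 KYSE150 libraries and 12 in all 6 KYSE510 libraries (77.8% and 66.7%, beside 50.8% and 55.2% of all genes). STAT2, a transcription factor of interferon signalling, had heights of 16 to 38 in KYSE150 and 25 to 43 in KYSE510, and IRF1, the interferon-induced factor, 12 to 27 and 20 to 28, so both overlapped between the lines. JAK1, the partner kinase of JAK2, had heights of 4 to 10 and 5 to 17. None of these 3 starts separated the lines as CD274 did. Of 13 other histone demethylase genes with UHRF1, 8 and 10 were called in all 6 libraries of KYSE150 and KYSE510 (61.5% and 76.9%).

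None of the genes on these lists passed the test for silencing. In the JAK-STAT list 0 of 14 tested genes in KYSE150 and 0 of 12 in KYSE510 reached an unadjusted p under 0.05 by limma, with median score changes of 0.07 and 0.01. In the demethylase list 0 of 8 and 1 of 10 did (KDM5C, higher after silencing in KYSE510), with medians of -0.05 and 0.09. For the genes of the segment itself, PDCD1LG2 included, 0 of 11 and 2 of 13 did, the latter being ERMP1 and GLDC, with medians of 0.10 and -0.27. The medians of all regions tested were 0.00 and -0.02. At the same unadjusted threshold 2.61% of all regions tested were higher and 2.72% lower in KYSE150, and 3.95% and 3.34% in KYSE510.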

How the data were processed

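ATAC-seq peak lists of 12 libraries (3 per group, groups from the labels) were used, 1 deposited list per library. A TruePrep kit and a NovaSeq sequencer were used, per the labels' protocols. The submitters' processing notes name Trimmomatic 0.36, Bowtie2 2.2.6, Picard 2.8.2, MACS2 2.1.1, bedtools 2.25.0 and GRCh38, with no role, order or settings. Per the file headers, the fold enrichment is a ratio computed by the authors. Its form, height plus 1 over background plus 1, was tested on the values. Per the file headers, p-values and FDR are on the linear scale. The pileup is a deposited signal, a whole-number height at 1 position and not a read count, so depth is unknown. The authors also deposited peak lengths in bp, at least 200. No scaling between libraries is recorded.

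From these, peaks on 24 chromosomes were merged where they overlapped by 1 bp, and local background was solved for each peak. Gene names came from RefSeq tables (GRCh38.p14). A region near a gene start lies within 1 kb of it. Values per library were compared by two-sided exact permutation tests, and rank scores by limma 3.58.1 (lmFit, eBayes) in R 4.3.3 with Benjamini-Hochberg adjusted p under 0.05. This test was checked on simulated data. Python 3.11.15, numpy 2.4.6, pandas 2.3.3, scipy 1.17.1 and matplotlib 3.10.9 were used. Named regions were the strongest by mean within-library rank of fold enrichment at each gene start and inside 6 genes, the 10 strongest members, the 3 with the smallest limma p per line, and the 2 tallest on each side of the presence comparison. The members and lists were chosen with earlier results of these data known. Alternatives covered peak thresholds, scales, segment limits, the replicate block and each library left out. Sequences of regions away from listed starts were not used here.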

Additional observations from a re-analysis of the deposited data

How the results depend on the processing

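No member passed the limma rank test in either line or in the comparison of lines under any setting that was run. The relative background in KYSE150, a difference of 0.21 on the log2 scale, became -0.207 when only peaks with FDR up to 0.05 were kept and -0.0253 with FDR up to 1e-05. That in KYSE510 (-0.01) became 0.0824 with weak peaks only, 0.0286 with 500 kb trimmed from each end and, at its largest, -0.186 with FDR up to 1e-05 (exact permutation p = 0.2). In KYSE150 the difference was 0.0224 by the mean of log2 background and 0.0592 with a height of at least 3. With each library left out in turn these differences ran from 0.107 to 0.363 in KYSE150 and from -0.0942 to 0.0696 in KYSE510. The share of peaks (percentage points) in KYSE150 became 0.00332 with FDR up to 0.05 and 0.0351 with FDR up to 1e-05, where that in KYSE510 became -3.79e-06. Left out in turn, libraries gave -0.00501 to 0.00757 in KYSE150 and 0.00229 to 0.0116 in KYSE510. No p of these single values could pass 0.05, and the causes were not tested.

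Regions on the control and silenced sides alone numbered 4 and 3 in KYSE150 and 0 and 4 in KYSE510. With FDR up to 0.05 the KYSE150 counts were 2 and 1, with FDR up to 1e-05 they were 1 and 0 and the KYSE510 counts 1 and 0. With a height of at least 3 the KYSE150 counts were 0 and 0. With 1 opposing library allowed, a looser rule, the 4 counts were 18, 8, 4 and 10, without a share over the genome beside them. When a peak had to cover most of the region, added after seeing the data, 2 were on the KYSE150 control side and 1 and 2 on the KYSE510 sides. Left-out libraries gave 8 to 28 and 4 to 30 in KYSE150 and 0 to 3 and 5 to 7 in KYSE510, since fewer libraries then had to match. The planned overlap rule let every peak count and was not run.

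Whether the same-numbered libraries of a line form pairs is not known, so the replicate block was run as an alternative setting. With the replicate block the background differences stayed at 0.21 (exact sign-flip permutation p = 0.5) and -0.01 (p = 1), the share differences at -0.000696 and 0.00575 (p = 0.75 each), and the rank tests called 0 members. The smallest sign-flip p is 0.25. Depth is unknown, and the number of libraries limits precision.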
